A study of Mus musculus with 8 samples.

Results

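The libraries compared were 4 of dopamine neurons, labelled datL (n = 2) and datM (n = 2), and 2 of serotonin neurons, 6 of the 8 libraries of the series. They were chosen by their titles alone: the midbrain dopamine libraries whose file headers carry no E18 mark were set against the hindbrain serotonin libraries. All came from bacTRAP mice, in which the promoter of a cell-type gene drives a tagged ribosomal protein, and purifying the tag from brain tissue brings down the messenger RNA being translated in those cells. The tissue of each library was embryonic brain dissected at E15. Every library description names the line driven by Slc6a3, the dopamine transporter gene, also for the serotonin libraries, and the letters L and M are not spelled out. No genotype other than the bacTRAP line and no treatment is given for any group, and nothing says whether replicates came from separate animals. The p-values therefore rest on the spread among 6 libraries, which could be technical. The file headers place datL and datM in an October run folder and the serotonin libraries in lane 8 of a different run, so neuron type, brain region and run cannot be told apart. The other 2 dopamine libraries, Lateral and Medial, were run in lane 8 with the serotonin libraries. Their headers carry the mark E18, which the labels use for midbrain dissected at E15 and kept in vitro for 3 days. They stood outside the test, and their values are given beside those of the 6 as dopamine libraries of the same run as serotonin.

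Dopamine and serotonin neurons share part of their chemistry. Th makes the precursor of dopamine and Tph2 that of serotonin, Ddc completes both syntheses, Slc18a2 loads either amine into vesicles, and Slc6a3 and Slc6a4 take dopamine and serotonin back up from outside the cell. Midbrain dopamine neurons depend on the transcription factors Nr4a2, Lmx1a, Foxa2, En1 and Pitx3, and serotonin neurons on Fev, Gata2, Gata3 and Lmx1b.

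Total counts ran from 22695145 to 27249827 in datL and datM and were 29470043 and 29157280 in serotonin. At the smallest total of the 6 libraries, 11708 to 12365 genes were expected to have a count in datL and datM (12075 ± 300, SD, n = 4), and 15144 and 14781 in serotonin (14963 ± 256, SD, n = 2). The ranges did not overlap, and the exact two-sided permutation p of 0.133 is the smallest that 4 against 2 libraries allow. The expected number at that total was 15350 in Lateral. Medial had a smaller total (22417739) and 13703 genes with a count at its own depth. Levels below are CPM, the usual depth-scaled counts, after TMM scaling of the library totals, and fold changes are datL and datM minus serotonin on the log2 scale.

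Slc6a3, Th, Slc6a4, Tph2 and Fev followed the titles in all 6 libraries, and Slc18a2 and Ddc, which both neuron types use, are described further on. Slc6a3 (ENSMUSG00000021609.6, mm10 chromosome 13, 73536747 to 73578672) stood at 140 and 246 CPM in datL, 33.2 and 177 in datM, and 0.616 and 0.157 in serotonin. Th (ENSMUSG00000000214.4, chromosome 7, 142892752 to 142931128) stood at 101 and 373 CPM in datL, 943 and 256 in datM, and 9.60 and 19.1 in serotonin. For both genes the 4 dopamine values were all higher than the 2 serotonin values. Slc6a4 (ENSMUSG00000020838.6, chromosome 11, 76998603 to 77032340) had 0 counts in all 4 dopamine libraries and stood at 1085 and 982 CPM in serotonin. Tph2 (ENSMUSG00000006764.8, chromosome 10, 115078641 to 115185022) had 1 count in datM replicate 1, 0 in the other dopamine libraries, and 2639 and 1999 CPM in serotonin. Fev (ENSMUSG00000055197.4, chromosome 1, 74881509 to 74885419), a transcription factor of serotonin neurons, had 0 counts in all 4 dopamine libraries and stood at 129 and 119 CPM in serotonin. These markers were thus at 0 or 1 count on the dopamine side.

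Some defining genes of midbrain dopamine neurons were near 0 or missing from a library, while others, described below, lay above serotonin in all 4 dopamine libraries. Pitx3 stood at 1.05 and 0.205 CPM in datL and 0.688 and 0 in datM, with 0.154 and 0 in serotonin. Drd2, the dopamine autoreceptor, had counts only in datM replicate 2 among the datL and datM libraries (0.0838 CPM) and was too low to be tested. Its levels were 0.400 and 0 CPM in serotonin, 11.2 in Lateral and 0 in Medial. Slc18a2 was at 0 in datL replicate 1, 11.0 CPM in datL replicate 2, and 77.2 and 167 in datM, below the 250 and 278 of serotonin. Lmx1b, which both neuron types use, was at 0 in 3 dopamine libraries and 0.0838 CPM in datM replicate 2, against 3.72 and 2.60 in serotonin.

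The promoters of the genes that separated the libraries were searched for 3 motifs in the window from 250 bases before to 50 after each start site, on both strands: AGATAA, bound by GATA factors, AAGGTCA, bound by factors of the Nr4a family, and TGACGTCA, the cAMP response element. The genes searched were those of the transmitter set and of the separation rule given below, of which 14 of 15 higher and 15 of 17 lower in dopamine libraries matched a RefSeq promoter (GRCm38.p6). AGATAA was found at Tph2, Fev and Slc18a2 among those lower and at Itm2a among those higher, beside 11.4% of all 27025 promoters. TGACGTCA was found at Th and Slc18a2, beside 1.78% of all promoters, and AAGGTCA at none of the 29, beside 4.66%. The AGATAA matches at the 3 lower genes and the TGACGTCA match at Th are shown as 30-base windows with the motif in capitals. The AGATAA match at Itm2a and the TGACGTCA match at Slc18a2 are not shown. The windows are written 5′ to 3′ on the gene's strand, and TTATCT is AGATAA read on the opposite strand. A match is a description of the letters and not a binding site.
Tph2 (chr10:115185133-115185162, minus strand): catcaggagcacAGATAAccccaagcttca
Fev (chr1:74885509-74885538, minus strand): attgcgatgggaAGATAAgaggggcggggg
Slc18a2 (chr19:59260636-59260665, plus strand): ccttggccttgaTTATCTtcaggacctttg
Th (chr7:142900022-142900051, minus strand): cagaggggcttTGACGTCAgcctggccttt

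Tph2 and Slc6a4, the serotonin-making enzyme and the serotonin transporter, were the genes that fell in datL and datM. Of 13032 genes tested with edgeR's quasi-likelihood test, 2 passed as lower (0.0153%) and 0 as higher (0%). The fold change of Tph2 was -17.23 with an SE of 0.80 (edgeR adjusted p = 0.000144), and its pooled rate was 221660 times higher in serotonin, with a 95% counting interval from 39783 to 8755200, since the dopamine side held 1 count. Slc6a4 was at least 32878-fold lower by a floor of 3 counts over the 4 dopamine libraries (edgeR adjusted p = 0.00725). Both lost the call where datL alone (edgeR adjusted p = 0.187 for each) or datM alone (edgeR adjusted p = 0.0951 for Tph2, edgeR adjusted p = 0.126 for Slc6a4) stood against serotonin. Across alternatives the lowest adjusted p, with DESeq2, was 1.24e-48 for Tph2 and 1.89e-44 for Slc6a4, and the highest was that with datL alone. An unadjusted p under 0.05 was reached by 374 genes higher and 796 lower in dopamine libraries. DESeq2 called 146 higher (1.12%) and 68 lower (0.522%), and limma-voom 1 and 118.

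In Lateral and Medial these genes had counts. Tph2 stood at 16.1 and 36.1 CPM there, Slc6a4 at 5.06 and 3.42, and Fev at 0.0868 and 0.272, all below both serotonin libraries. With Lateral and Medial in place of datL and datM, Tph2 had a fold change of -6.56 and did not pass (edgeR adjusted p = 0.0829). Slc6a4 (fold change -8.02, edgeR adjusted p = 0.0101) and Fev (fold change -9.55, edgeR adjusted p = 0.0465) passed there.

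Since so few genes passed, separation was also counted library by library, with no test. At 869 genes (6.67% of those tested) each of the 4 dopamine values was higher than either serotonin value, and at 1910 (14.7%) each was lower. Random order of 4 against 2 libraries would give 6.67% in each direction if all libraries were equally alike. The share above was no larger than that. The serotonin libraries were more alike (Pearson's r of log2 (CPM + 1) 0.941) than the dopamine libraries (0.606 to 0.688). The share for such unequal sides was not worked out, so the 14.7% is not shown to exceed random order. Lying above or below serotonin in all 4 libraries is thus, by itself, no evidence of a difference at a gene. The median fold change of all genes tested was 0.21. The genes described next are the 15 each way with the widest gap between the nearest libraries of the 2 sides, on log2 (CPM + 1), among named genes averaging at least 5 CPM. That gap chose them, so their values are a description.

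**Figure D1:**
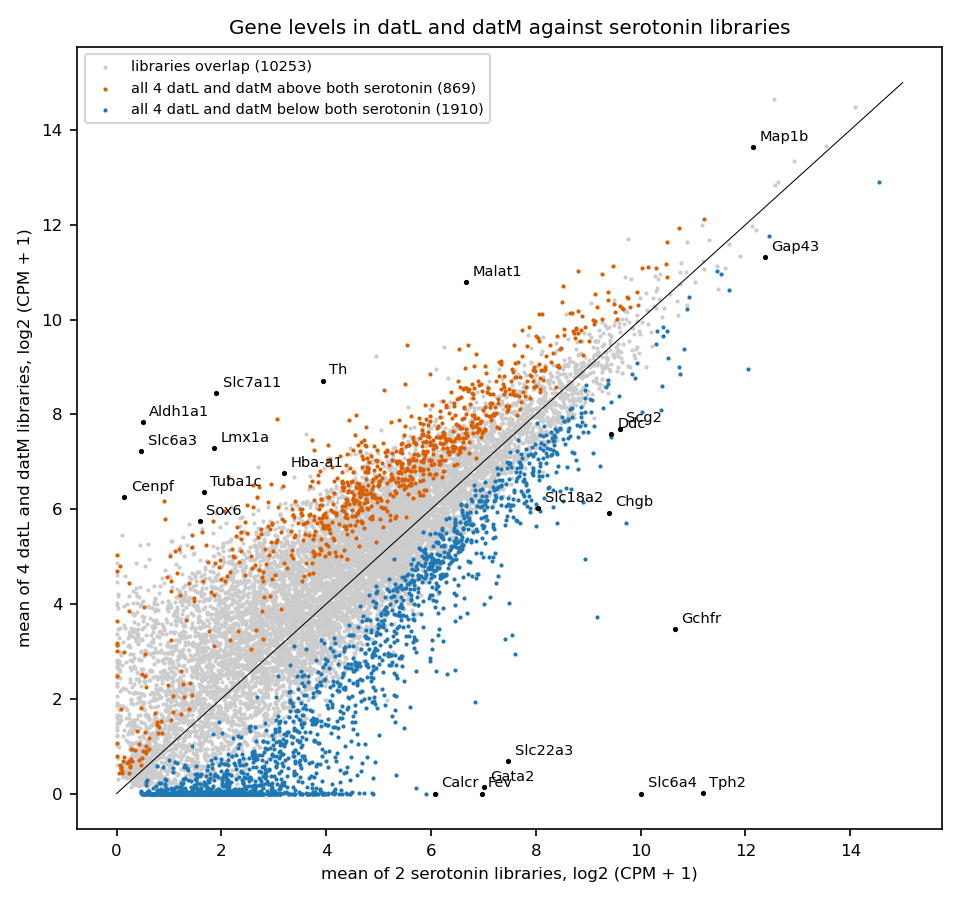
Mean level of each tested gene in the 4 datL and datM libraries (vertical axis) against the mean in the 2 serotonin libraries (horizontal axis), both as log2 (CPM + 1), with the line of equality. Orange points are the 869 genes with all 4 dopamine libraries above serotonin and blue points the 1910 at which all 4 lay below. Some of the blue points lie on the bottom axis, where all 4 dopamine libraries had 0 counts.

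Among the genes separated upward, dopamine neuron genes stood beside genes of dividing cells, transport and blood. Aldh1a1, a retinaldehyde dehydrogenase of some midbrain dopamine neurons, stood at 31.9 and 249 CPM in datL, 260 and 364 in datM, and 0.523 and 0.313 in serotonin (fold change 9.06, SE 1.31, edgeR adjusted p = 0.119). It passed in 3 of 18 alternatives. These were DESeq2, edgeR without datL replicate 1, and edgeR with Lateral and Medial instead (fold change 10.76, edgeR adjusted p = 0.00764). Nr4a2 stood at 61.4 and 106 CPM in datL, 483 and 298 in datM, and 9.39 and 5.26 in serotonin. Lmx1a stood at 30.7 and 48.4 CPM in datL, 357 and 186 in datM, and 2.00 and 3.29 in serotonin. Both transcription factors were higher in each datM library than in each datL library, a difference that was not tested. Sox6, a transcription factor of some midbrain dopamine neurons, stood at 46.0 and 29.4 CPM in datL, 76.2 and 59.1 in datM, and 2.25 and 1.75 in serotonin. In the E18-marked libraries Sox6 stood at 26.0 CPM in Lateral and 0.0777 in Medial, the latter below serotonin. Aldh1a1, Nr4a2 and Lmx1a lay above serotonin in both of those.

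Slc7a11, the cystine and glutamate exchanger, had the widest upward gap. It stood at 524 and 169 CPM in datL, 543 and 158 in datM, and 2.22 and 3.26 in serotonin (fold change 6.99, SE 0.92, edgeR adjusted p = 0.119), with 339 CPM in Lateral and 129 in Medial. Cenpf, a kinetochore protein of dividing cells, stood at 30.1 and 27.3 CPM in datL, 119 and 126 in datM, and 0.0923 and 0.125 in serotonin. Tuba1c, an alpha-tubulin, stood at 106 and 40.5 CPM in datL, 127 and 52.3 in datM, and 1.66 and 2.66 in serotonin. These 3 also lay above serotonin in Lateral and Medial. The other upward genes were Etv1 and Ets1, both ETS transcription factors, Itm2a, Pclaf, a DNA replication factor, and the globins Hba-a1 and Hbb-bt. Ets1 and Pclaf did not lie above serotonin in Medial (1.20 and 1.98 CPM), where serotonin held 3.73 to 6.50 and 2.22 to 2.51 CPM.

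Among the genes separated downward, serotonin neuron genes led. Gata2 had 8 counts in datL replicate 1 (0.382 CPM) and 0 in the other dopamine libraries, against 111 and 145 CPM in serotonin (fold change -10.38, SE 1.98, edgeR adjusted p = 0.119). Slc22a3, a low-affinity transporter of amines, stood at 0 and 2.37 CPM in datL, 0.0382 and 0 in datM, and 167 and 187 in serotonin. Gchfr, the regulator of the enzyme that makes the cofactor of Th and Tph2, stood at 40.2 and 0 CPM in datL, 0.0382 and 0.0838 in datM, and 1684 and 1545 in serotonin. In edgeR it passed without datL replicate 1 (edgeR adjusted p = 0.00344) and not with it (edgeR adjusted p = 0.272), in limma-voom it passed with all 6 libraries (limma-voom adjusted p = 0.0428), and the highest adjusted p across alternatives was 0.488. Calcr, the calcitonin receptor, and Cryba2, a beta-crystallin, had 0 counts in all 4 dopamine libraries, and serotonin held 59.9 and 72.9 CPM of Calcr and 70.0 and 47.7 of Cryba2. By the floor they were at least 2113-fold and 1872-fold lower.

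The remaining downward genes were Amacr, Pim2, Lhfpl5, Brinp1, Pnpla2, Tmem159 and Hs6st2. Amacr and Pim2 had 0 counts in all 4 dopamine libraries, and Lhfpl5, Brinp1, Pnpla2 and Tmem159 had 1 count in all. In Lateral and Medial these low genes had counts. Brinp1 stood at 57.2 CPM in Lateral and 19.4 in Medial, against 34.8 and 22.1 in serotonin, and its fold change turned to 0.33 when Lateral and Medial took the place of datL and datM. Amacr stood at 7.58 CPM in Lateral and 22.5 in Medial, against 17.7 and 18.3 in serotonin, and Lhfpl5 at 11.4 and 31.2, against 25.3 and 22.2. In Lateral and Medial, Pnpla2 (15.6 and 0.311 CPM) and Tmem159 (11.0 and 4.16) lay below both serotonin libraries. Pim2 (10.3 and 3.26 CPM) and Hs6st2 (20.5 and 32.6) did too.

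**Figure D2:**
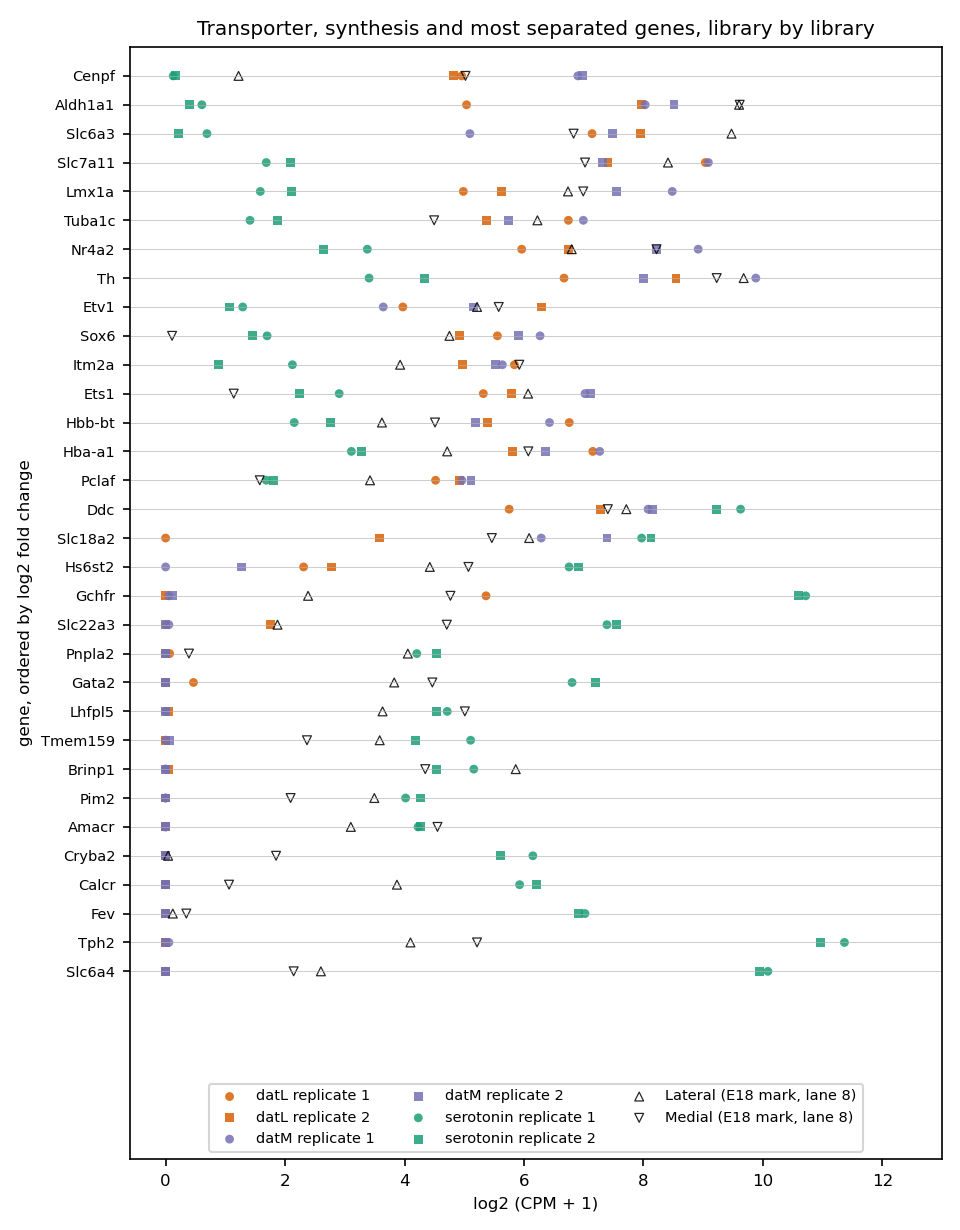
Level of each gene of the transmitter set and of the 15 widest gaps each way, as log2 (CPM + 1), with 1 point per library; orange is datL, purple datM, green serotonin, and open triangles are the E18-marked Lateral and Medial libraries of lane 8. Genes are ordered by fitted fold change, and at the bottom datL and datM sit at or near 0 while at least 1 open triangle each of Brinp1, Amacr and Lhfpl5 reaches the serotonin level.

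Genes missing from datL and datM altogether were counted next. At 53 genes (0.407%) all 4 dopamine libraries had 0 counts while both serotonin libraries held at least 5 CPM, and the reverse was seen at 0 genes (0%). Of the 53, 51 had counts in Lateral or Medial, 24 reached 5 CPM in Lateral, 13 reached it in Medial and 7 in both. Slc6a4, Fev, Calcr, Cryba2 and Penk, the enkephalin precursor, were among the 53.

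The replicate pairs differed in which genes had counts. In the datL pair 808 genes had 0 counts in 1 library and at least 10 CPM in the other, in the datM pair 755, and in the serotonin pair 2. The biological coefficient of variation, edgeR's measure of spread between replicates, was 1.54 in datL, 1.53 in datM and 0.547 in serotonin. Among genes averaging at least 5 CPM in a pair, 42.6% of 9140 differed by over 4-fold in datL, 39.8% of 9213 in datM and 1.75% of 9596 in serotonin. Across the 13032 genes, Pearson's r of log2 (CPM + 1) was 0.606 to 0.688 among the 4 dopamine libraries, 0.699 to 0.757 between them and serotonin, and 0.941 in the serotonin pair. For Lateral and Medial it was 0.663 to 0.777 with datL and datM, and 0.779 to 0.893 with serotonin of the same lane. These values describe genes that share libraries and depth. The part of this spread in each fold change above was not tested.

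**Figure D3:**
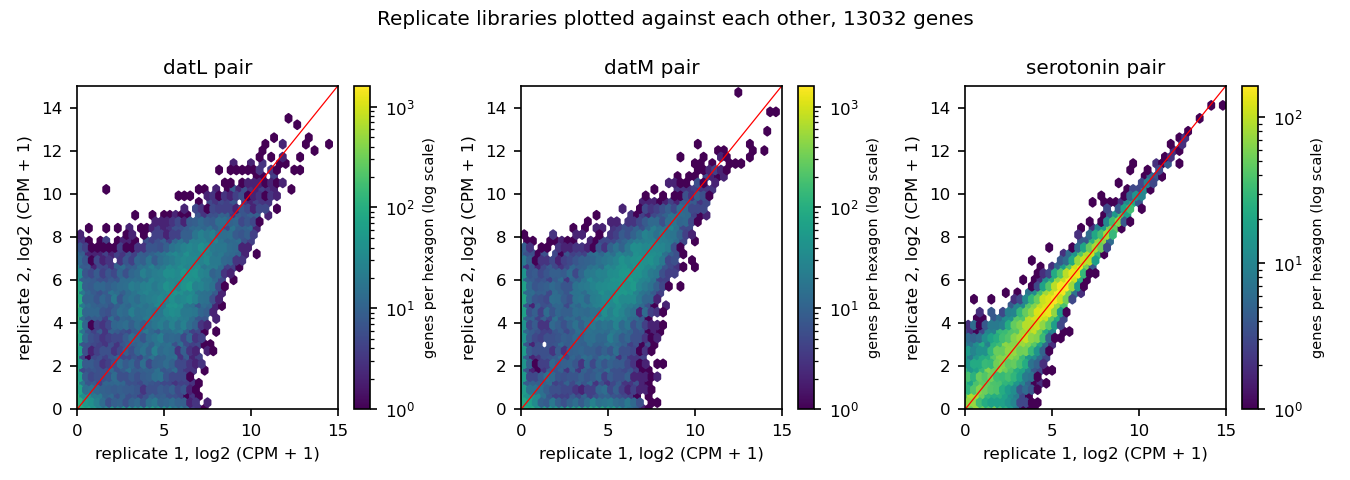
Replicate 1 (horizontal axis) against replicate 2 (vertical axis) of the datL, datM and serotonin pairs, as log2 (CPM + 1), with the colour of each hexagon giving the number of genes on a log scale and the red line equality. The datL and datM panels fill the plane and the axes, where a gene has counts in 1 library only, and the serotonin panel follows the line.

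Lists of genes with known roles were then described by their counts and medians, beside 6.67% above, 14.7% below and a median of 0.21 over all genes tested. The 6.67% is also the share that random order of equally alike libraries gives in each direction. List counts were not tested against it. Fewer cells of a type and less RNA per cell cannot be told apart in these bulk samples. Of 19 tested midbrain dopamine neuron genes, 7 lay above both serotonin libraries (Slc6a3, Th, Aldh1a1, Nr4a2, Lmx1a, Foxa1 and Foxa2), 5 lay below (Slc18a2, Ddc, Lmx1b, Kcnj6 and Slc10a4) and 0 passed the edgeR test, with a list median of 2.30. Foxa2, a factor of the ventral midline, stood at 31.2 and 19.8 CPM in datL, 63.4 and 10.7 in datM, and 2.00 and 0.0313 in serotonin. Ddc stood at 52.9 and 155 CPM in datL, 269 and 282 in datM, and 790 and 598 in serotonin (fold change -1.87, SE 0.61, edgeR adjusted p = 0.245). The genes of amine synthesis and storage that both neuron types use were thus lower in each dopamine library. Chrna6, a nicotinic receptor subunit of dopamine neurons, stood at 15.3 and 0.777 CPM in datL, 181 and 273 in datM, and 5.29 and 5.70 in serotonin, where the groups overlapped.

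Of 14 tested serotonin neuron genes, 9 lay below both serotonin libraries and 1, Foxa2, above, with a list median of -4.66, and Tph2 and Slc6a4 passed. Gata3 stood at 457 and 73.8 CPM in datL, 38.5 and 11.9 in datM, and 546 and 550 in serotonin. Maob, the monoamine oxidase of serotonin neurons, stood at 2.96 and 0 CPM in datL, 11.4 and 0.712 in datM, and 18.7 and 20.2 in serotonin. Htr1a, the autoreceptor on serotonin neurons, overlapped between the sides. It stood at 0.0477 and 11.8 CPM in datL, 0.0764 and 61.0 in datM, and 23.7 and 18.8 in serotonin.

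Dbh, which makes noradrenaline from dopamine, and Phox2a, a transcription factor of noradrenaline neurons, had 0 counts in all 4 dopamine libraries, and serotonin held 1.39 and 0.752 CPM of Dbh and 0.462 and 1.22 of Phox2a. Of tested genes averaging 1 to 5 CPM in serotonin, 11.5% had 0 counts in all 4 dopamine libraries and 23.5% lay below. Under 1 CPM the shares were 7.33% and 11.3%. Among 15 matched hindbrain patterning genes 4 were high enough to test, and Hoxa2, a gene of the anterior hindbrain, had 0 counts in the 4 dopamine libraries, in Lateral and in Medial, against 1.45 and 4.48 CPM in serotonin. Of 10 tested midbrain patterning genes, 3 lay above and 1 below, with a median of 1.89. Pou4f1, a factor of red nucleus and tectal neurons, stood at 99.6 and 27.9 CPM in datL, 148 and 75.9 in datM, and 7.51 and 3.60 in serotonin. Otx2 and En1, which pattern the midbrain, overlapped between the sides.

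Of 12 tested GABA neuron genes, 2 lay above and 3 below, with a median of 0.79 that changed sign without datL replicate 2 and with datM alone. Gad2, which makes GABA, stood at 212 and 206 CPM in datL, 48.8 and 131 in datM, and 27.3 and 41.9 in serotonin. Gad1, the other such enzyme, stood at 112 and 384 CPM in datL, 1.61 and 0.209 in datM, and 69.9 and 98.7 in serotonin. Dlx1 and Dlx5, forebrain factors of GABA neurons, had counts in both datL libraries (10.1 and 30.5 CPM of Dlx1, 3.39 and 7.61 of Dlx5) and 0 in both datM libraries. Dlx2 and Dlx6, which were not tested, differed within the datL pair, at 44.0 and 0 CPM of Dlx2 and 0 and 2.49 of Dlx6. In datM, Dlx2 stood at 0 and 0.0419 CPM and Dlx6 at 0 in both libraries. Of 8 tested glutamate neuron genes, Neurod1 lay above and Slc17a8 below. Slc17a8, a vesicular glutamate transporter also found in serotonin neurons, had 0 counts in all 4 dopamine libraries and 28.6 and 13.3 CPM in serotonin. Slc17a6, the transporter of midbrain glutamate neurons, stood at 7.35 and 209 CPM in datL, 118 and 287 in datM, and 13.6 and 28.4 in serotonin. Prph, a neurofilament protein of motor and other brainstem neurons, had 0 counts in all 4 dopamine libraries and 4.80 and 23.8 CPM in serotonin.

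Of 19 tested neuropeptide and secretory granule genes, 7 lay below serotonin and 1 above, with a median of 0.10 whose sign changed in 9 of 12 alternatives. Penk had 0 counts in the 4 dopamine libraries, and 12.4 and 122 CPM in serotonin. Chgb, a granule matrix protein, stood at 20.2 and 16.2 CPM in datL, 71.7 and 131 in datM, and 614 and 734 in serotonin (fold change -3.49, SE 0.79, edgeR adjusted p = 0.123). Scg2, another, stood at 191 and 139 CPM in datL, 162 and 333 in datM, and 740 and 810 in serotonin. Lateral and Medial lay below serotonin for both granule genes, at 95.3 and 37.3 CPM of Chgb and 176 and 259 of Scg2. Pcsk1, a peptide-processing enzyme, had 0 counts in the 4 dopamine libraries. Adcyap1, the precursor of the peptide PACAP, was the member above.

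Synaptic vesicle and release genes lay in both directions. Of 23 tested, Pclo and Bsn, the large scaffolds of the release site, lay above serotonin and Syt1, Syp, Cplx2, Rab3a and Stx1a below, with a median of -0.45. Pclo stood at 204 and 177 CPM in datL, 310 and 298 in datM, and 39.0 and 57.7 in serotonin. Syt1, the calcium sensor of release, stood at 60.3 and 50.3 CPM in datL, 85.3 and 140 in datM, and 340 and 302 in serotonin. The list median turned positive (0.22) with Lateral and Medial in place of datL and datM.

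Among genes of growing axons, 4 of 23 cytoskeleton genes lay above serotonin and 2 below, with a median of 0.05 that changed sign in 3 of 12 alternatives. Dcx, a microtubule protein of young neurons, stood at 728 and 1153 CPM in datL, 1281 and 1450 in datM, and 433 and 460 in serotonin. Lateral and Medial, at 527 and 365 CPM of Dcx, gave a fold change of -0.09 against serotonin. Gap43, a growth cone protein, stood at 3038 and 2461 CPM in datL, 2632 and 2121 in datM, and 5509 and 5101 in serotonin, with 3053 and 2363 in Lateral and Medial. Of 32 axon guidance genes, 5 lay above (Sema6a, Ephb1, Epha4, Dcc and Plxna2) and 3 below (Sema3c, Sema5a and Efnb3), with a median of 1.09. Dcc, a netrin receptor, stood at 20.7 and 45.7 CPM in datL, 20.2 and 86.6 in datM, and 14.2 and 7.93 in serotonin. Of 22 tested ion channel genes 3 sodium channels (Scn1a, Scn3a and Scn8a) lay above and Kcnj6 and Hcn2 below.

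Markers of other cell types overlapped between the sides for most listed genes outside the globins, and none passed the edgeR test. Of 15 tested radial glia and astrocyte genes 5 lay above serotonin and 0 below, with a median of 2.23. The summed level of all 16 listed genes was 2553 to 5611 CPM in datL and datM, 1025 and 1455 in serotonin, 2807 in Lateral and 4319 in Medial. Gfap, an astrocyte marker, was at 0 in the 4 dopamine libraries. Fabp7, a radial glia fatty acid carrier, stood at 3220 and 1508 CPM in datL, 2301 and 1350 in datM, and 409 and 484 in serotonin. Of 18 proliferation genes 3 lay above and 0 below, with a median of 2.17 and a summed level of 595 to 1379 CPM in datL and datM against 162 and 222 in serotonin. Top2a, needed for chromosome separation, stood at 14.6 and 102 CPM in datL, 171 and 480 in datM, and 14.8 and 7.71 in serotonin, and Mki67, a marker of cycling cells, overlapped.

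Of 7 tested red blood cell genes 5 globins lay above serotonin and 0 below, with a median of 3.72. The summed level of all 9 listed genes was 242 to 828 CPM in datL and datM, 28.6 and 49.1 in serotonin, 98.4 in Lateral and 206 in Medial. Alas2, a heme enzyme of red cell precursors, was at 0 in 3 dopamine libraries and in serotonin and stood at 28.3 CPM in datL replicate 2. Near-identical globin genes are uncertain as single values. Of 8 tested oligodendrocyte lineage genes 0 lay above or below, and the summed level of all 9 listed was 89.9 to 238 CPM in datL and datM and 117 and 141 in serotonin, with Sox10 at 0 in 3 dopamine libraries. The microglia list held 1 testable gene of 10, its summed level was at most 14.6 CPM in the 6 libraries, and Csf1r and P2ry12 were at 0 in all 8 libraries. Of 7 tested endothelium, pericyte and meninges genes Rgs5 lay above and Cldn5 below, and the summed level of all 13 listed was 15.1 to 149 CPM in datL and datM and 12.5 and 56.8 in serotonin. The part of these cell types in the results above was not tested.

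**Figure D4:**
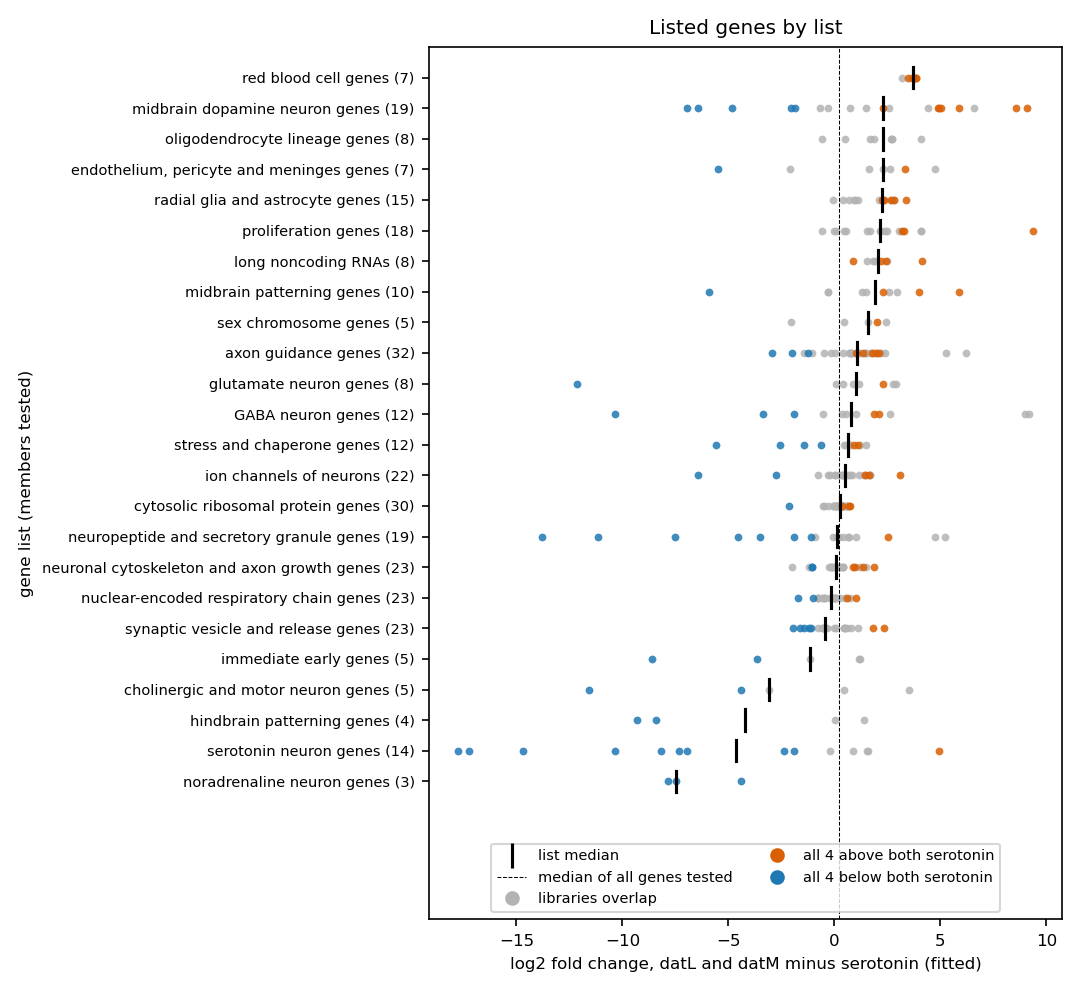
Fitted log2 fold change, datL and datM minus serotonin, of each tested gene of the lists with at least 3 tested members; orange genes had all 4 dopamine libraries above serotonin, blue all 4 below, grey overlapped, black bars are list medians and the dashed line is the median of all genes tested (0.21). Red blood cell genes lie together near 3.7, and serotonin and noradrenaline neuron genes reach far to the left, where dopamine libraries had few or 0 counts.

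Of 30 cytosolic ribosomal protein genes 3 lay above and 1 below, with a median of 0.26 that changed sign in 3 of 12 alternatives. Rpl13 stood at 187 and 46.9 CPM in datL, 81.9 and 31.0 in datM, and 439 and 327 in serotonin. Of 23 nuclear-encoded respiratory chain genes 2 lay above and 2 below. Of 12 tested stress and chaperone genes 2 lay above, Hspa8 and Hsp90aa1, and 4 below, and of 5 tested immediate early genes 0 lay above and 2, Arc and Nr4a1, below. Of 8 tested long noncoding RNAs 4 lay above (Malat1, Meg3, Snhg11 and Gas5) and 0 below, with a median of 2.06. These 8 were unlike the whole class, since of all 272 tested long noncoding genes 4.78% lay above and 26.5% below. Malat1, a nuclear RNA, stood at 477 and 2741 CPM in datL, 968 and 2882 in datM, and 81.3 and 121 in serotonin, and at 481 in Lateral and 1228 in Medial.

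The direction of the difference varied with gene length. In 10 bins of about 1303 genes by the length given in the deposited tables, the median fold change was -0.12 in the shortest and 0.87 in the longest, a difference of 0.99. The share of genes above serotonin was 4.91% in the shortest bin and 16.2% in the longest, and the share below 18.3% and 5.98%. The difference between the longest and the shortest bin, computed from each dopamine library's own levels, was -0.53 in datL replicate 1, 1.26 in datL replicate 2 and 0.87 in datM replicate 1, and it was highest in datM replicate 2, so that 1 library went the other way. The longest bin holds Slc7a11, Cenpf, Sox6 and Ets1, which are among the widest upward gaps. It also holds, among others, Pclo, Bsn, Map2, Dcx, Plxna2, Meg3, Snhg11, Scn1a, Scn3a, Scn8a and Top2a. The part of length in the values of these genes was not tested.

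**Figure D5:**
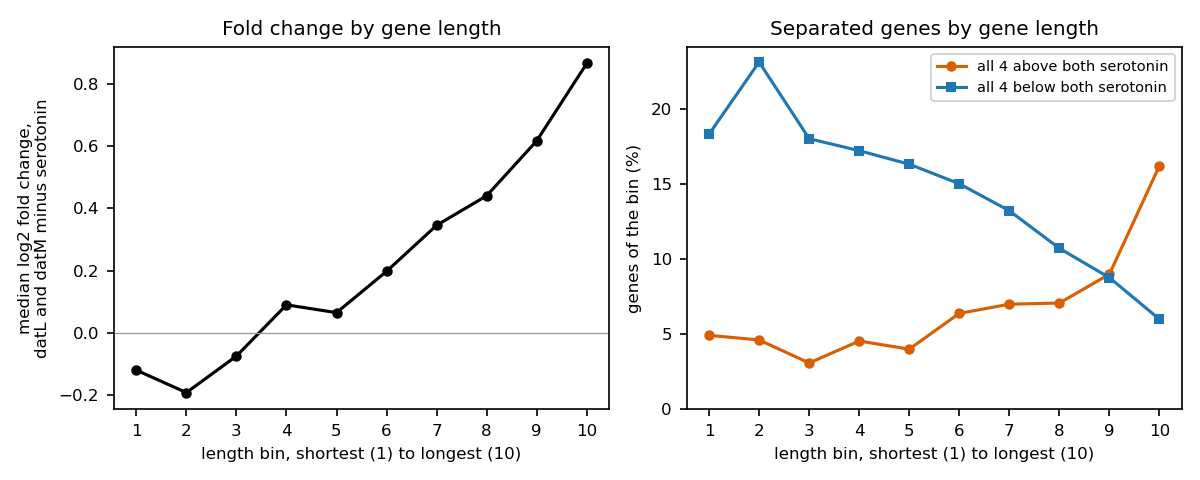
Median log2 fold change, datL and datM minus serotonin (left), and share of genes with all 4 dopamine libraries above or below serotonin (right), in 10 bins of genes from the shortest to the longest. From the shortest to the longest bin the median goes from -0.12 to 0.87, the share above from 4.91% to 16.2% and the share below from 18.3% to 5.98%.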

How the data were processed

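The deposited files hold raw counts of reads per gene, made by the authors with STAR and featureCounts 1.4.3-p1 on mm10 and GENCODE M2 ignoring strand, as the file headers and the submitters' processing notes state. Overlapping antisense genes therefore cannot be told apart. cDNA was amplified by long-distance PCR without molecular identifiers, per the labels' protocols, so intervals and floors cover counting error only. Symbols matched 37607 of 38924 gene identifiers, and 402 of 408 listed genes matched the table.

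The 4 datL and datM libraries were compared with the 2 serotonin libraries in edgeR 4.0.16 (R 4.3.3; TMM factors, default expression filter, quasi-likelihood test, two-sided, Benjamini-Hochberg adjustment, threshold 0.05). Lateral and Medial were put on the same scale and left out of the fit. Standard errors were derived from fold change and statistic. DESeq2 1.42.0 gave no adjusted p for 3152 genes. Genes named were 8 transmitter genes, the 15 widest gaps each way (mean of at least 5 CPM, pseudocount 1), called genes, and up to 4 members of each of 26 lists by smallest p (mean of at least 1 CPM). Other genes were named after their values were seen. Members and lists were chosen with earlier results of these data known. Alternatives were other scalings, tools (limma 3.58.1), filters, library sets, a replicate block and leaving out each library.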

Additional observations from a re-analysis of the deposited data

Results flagged for a closer look

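In 8 genes 1 of the 4 datL and datM libraries stood apart from the other 3 by Dixon's ratio of gap to range, which chance exceeds in about 1 of 20 groups. In 6 of them the other 3 libraries had 0 counts, so the ratio is at its highest value whatever the remaining library holds, and 5 of these rest on 1 count: Tph2 stood at 0.0382 CPM in datM replicate 1, Gata2 at 0.382 in datL replicate 1, Brinp1 and Lhfpl5 at 0.0409 each in datL replicate 2, Tmem159 at 0.0419 in datM replicate 2, and Pnpla2 at 0.0477 in datL replicate 1. Slc22a3 stood at 2.37 CPM in datL replicate 2, with at most 0.0382 in the others. Gchfr stood at 40.2 CPM in datL replicate 1, with at most 0.0838 in the others.

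Eif2s3y, a gene of the Y chromosome, lay above both serotonin libraries (8.22 and 7.83 CPM) in both datL libraries (66.6 and 27.2, mean 46.9) and below them in both datM libraries (2.75 and 0.209). The difference between datL and datM was not tested.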

How the results depend on the processing

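Calls depended on the tool and the libraries. Genes called higher were 0 in edgeR, 146 in DESeq2, 1 in limma-voom, 0 to 1 when leaving out 1 library (1 without datL replicate 1) and 1 with Lateral and Medial in place of datL and datM. Genes called lower were 2 in edgeR, 68 in DESeq2, 118 in limma-voom, 0 with datL alone, 0 with datM alone and 2 to 3 when leaving out 1 library. Without 1 datL or datM library, genes above serotonin numbered 1232 to 1709 and genes below 2629 to 3028, both highest without datL replicate 1. Without 1 serotonin library they numbered 1154 and 1269 above, and 2332 and 2400 below. With Lateral and Medial in place of datL and datM they were 3250 and 3262. Scaled by library totals alone, the 4 against 2 libraries gave 644 and 2347. Random order gives larger shares where fewer libraries are compared, by an amount that depends on the side left out. Counts from fewer libraries are therefore not comparable with one another or with the 6.67% of 4 against 2 libraries. Genes absent from 1 replicate and at 50 CPM or more in the other numbered 103 in datL, 114 in datM and 0 in serotonin, and at 5 CPM or more 21 in serotonin. With Lateral and Medial the fold change turned to 0.33 for Brinp1, -0.091 for Dcx, 0.043 for Pax8, -0.084 for Rplp0, 0.13 for Nr4a1, -0.18 for Xist and 0.94 for Uty; in limma-voom it turned to -0.53 for Eif2s3y and -1.73 for Xist, with datM alone to -2.44 for Eif2s3y, and leaving out 1 library gave -0.56 (without datM replicate 2) to 3.31 for Xist. The cause was not tested.

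With a replicate block edgeR called 0 genes higher and 3 lower, and Xist turned to -5.96. Same-numbered libraries correlated in their deviations at 0.12 (datL with datM), 0.04 (datL with serotonin) and 0.01 (datM with serotonin), so they were taken to share only a number. A gene not called may still differ.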

Other observations

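Gch1, which makes the pterin cofactor of Th and Tph2 and was chosen after its values were seen, stood at 0.0954 and 19.6 CPM in datL, 14.5 and 0 in datM, and 183 and 154 in serotonin, with 37.2 in Lateral and 65.1 in Medial. All 4 dopamine libraries lay below serotonin for Gch1. Maoa, which breaks down both amines and was chosen in the same way, stood at 0.191 and 136 CPM in datL, 176 and 53.4 in datM, and 198 and 167 in serotonin, where datM replicate 1 lay between the serotonin libraries.

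Xist, transcribed from the inactive X chromosome, had 0 counts in datL replicate 1 and datM replicate 1 and stood at 3.93 CPM in datL replicate 2, 36.1 in datM replicate 2, and 2.65 and 1.00 in serotonin. Ddx3y, on the Y chromosome, stood at 45.4 and 24.9 CPM in datL, 80.4 and 88.0 in datM, and 11.2 and 18.1 in serotonin.

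By annotated type, 26.5% of 272 long noncoding genes lay below serotonin in all 4 dopamine libraries and 4.78% above, beside 14.6% and 6.54% of 12258 protein-coding genes. Of 425 pseudogenes 7.29% lay below and 11.8% above.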
